A study of Arabidopsis thaliana with 4 samples.

Results

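Class III peroxidases are the secreted, plant-specific heme peroxidases of the cell wall and vacuole. They were examined here in Arabidopsis thaliana seedlings of the ADD3 mutant (ARRESTED DEVELOPMENT 3) and of wild type. The family was taken as a list of 60 loci, and a locus was used where the array annotation gave it a probe set of its own. This held for 44 of the 60 loci, out of 13286 loci with such a probe set on the whole array. Symbols or synonyms in the gene table named 14 of the 60 as peroxidases, so the family label rests on the list for the others. The mutant was induced with EMS, a chemical mutagen, in Col-3 gl1, which carries the gl1 mutation that leaves leaves hairless. Wild type was Col-0, so the effect of the mutation and that of the background cannot be told apart. Both groups were at developmental stage 1.02 and had been kept at 4 °C for 4 days on soil mix before growth at 29 °C with daily light of 24 h. The labels name hypocotyls, cotyledons, meristems, the first true leaves and leaf initials as the tissue, and no roots. Each group had 2 samples on 1 array each.

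Class III peroxidases use hydrogen peroxide to oxidise phenolic compounds, and they can also produce reactive oxygen. In the wall they couple monolignols into lignin and cross-link extensins, which stiffens it, while the radicals they form can loosen it. Land plants carry many copies of these genes. In Arabidopsis many members are known from roots, where they act in root hairs and in the lignin of the Casparian strip, the barrier around the vascular cylinder. Others are known from lignifying xylem and fibres, from pathogen responses and from reproductive organs.

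The arrays measured relative transcript levels as MAS5 signals, in arbitrary units. Levels of different probe sets cannot be compared with each other, so each gene is set only against itself and against the background. As background of an array served the brightest of 27 bacterial control probe sets that read as unspiked. It was 20.5 and 13.0 on wild-type replicates 1 and 2, and 25.4 and 12.3 on mutant replicates 1 and 2. Median signals lay between 48.2 and 52.1. The number of arrays limits the precision. The labels do not say whether replicates came from separate plantings, so p-values reflect the spread between these samples alone, and that spread may be technical. In whole seedling tops, fewer cells of a type and less RNA per cell cannot be told apart.

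Of the 44 peroxidase genes, 17 had signals above background on all 4 arrays, 14 on 1 to 3 arrays and 13 on no array. The share above background on all 4 arrays was 38.6%, beside 58.7% of all loci with a probe set of their own. The share on no array was 29.5%, beside 20.1% of all such loci. With the second-highest control as the background level, the counts were 25 on all arrays and 9 on none. On mutant replicate 1 that control read 9.96, against 25.4 for the brightest, so the classes depend on single controls. No share over all loci is given for that level.

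**Figure D1:**
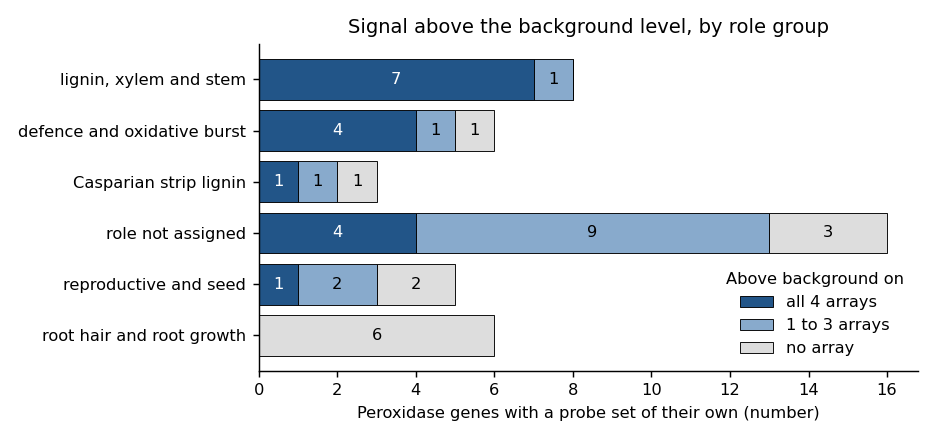
Number of peroxidase genes (horizontal axis) in each role group (vertical axis) with a signal above the background level on all 4 arrays, on 1 to 3 arrays or on none. All 6 genes of the root hair and root growth group lie in the last class, while 7 of 8 genes of the lignin, xylem and stem group lie in the first.

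Counts above background differed between the role groups, which were chosen with earlier results of these data known. Since levels of different probe sets cannot be compared, the counts do not rank the groups by transcript level. Of the group known from root hairs and root growth, 7 loci were listed and 6 had a probe set, and none of the 6 was above background on any array. AT3G49960 had signals of 0.951 and 0.814 in wild type and 0.711 and 0.584 in the mutant. AT5G17820, which the root regulator UPB1 is known to repress, had signals of 3.03 and 2.51 in wild type and 1.54 and 2.85 in the mutant. The root hair peroxidase gene AT4G26010 had signals of 8.69 and 7.83 in wild type and 9.14 and 4.52 in the mutant. Signals of the 6 genes lay between 0.447 and 19.5, the latter for AT1G30870 on mutant replicate 1, where the background was 25.4. With the second-highest control as background 5 of the 6 stayed below it on every array. UPB1 itself was also not above background, at 6.21 and 0.774 in wild type and 0.253 and 0.809 in the mutant.

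Of the group known from lignin, xylem and stem, 8 of 9 loci had a probe set and 7 of these were above background on all 4 arrays. The exception was PRX52, known for the lignin of fibres in the stem, with signals of 24.6 and 11.3 in wild type and 23.2 and 17.2 in the mutant. It was above background on replicate 1 of wild type and replicate 2 of the mutant. PRX25, another gene of stem lignin, had signals of 23.0 and 35.6 in wild type and 25.4 and 29.4 in the mutant. It was close to background on replicate 1 of wild type and mutant, where the background was 20.5 and 25.4. On replicate 2 of wild type and mutant the background was 13.0 and 12.3. The groups of PRX25 overlapped, and its mean signal was below that set for a test. The remaining 6 genes of this group were tested.

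In all, 13 of the 44 peroxidase genes passed the filter on low signals, a mean of 33.2 over the 4 arrays that makes no use of the group labels. Of all loci with a probe set of their own 54.9% passed. All 13 were above background on every array. Among these 13, 3 genes rose in the mutant (AT5G51890, PRX71 and AT3G28200), 1 fell (AT3G21770) and 9 did not pass the test (limma, adjusted p under 0.05). Over all 13648 tested probe sets 4.17% rose and 3.14% fell, 7.31% in all. These were 569 rises and 428 falls, and with median scaling they were 937 and 320. With so few genes, the 4 calls are described one by one and nothing is read from their share.

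**Figure D2:**
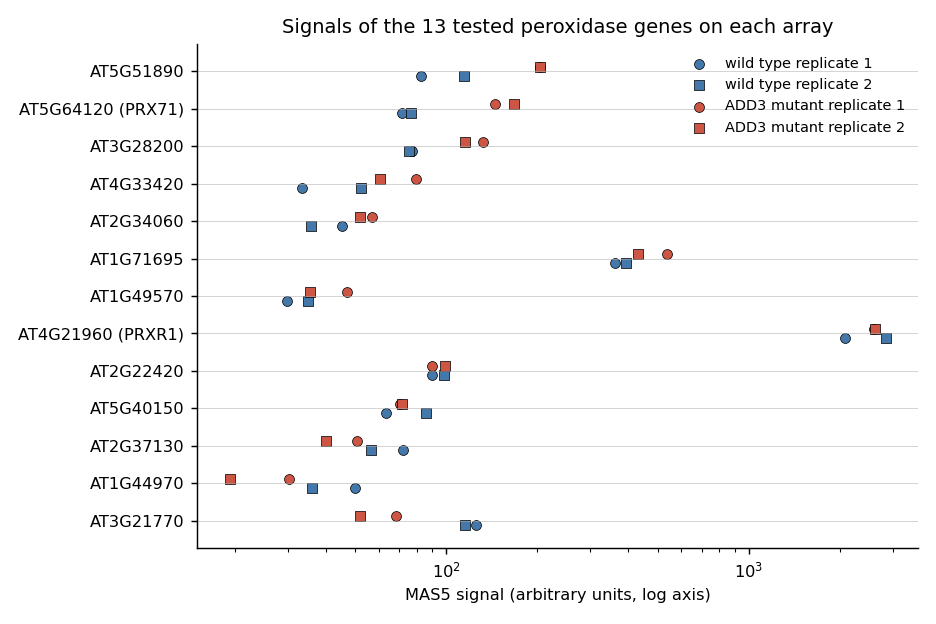
MAS5 signal on a log axis (horizontal, arbitrary units) of each of the 13 tested peroxidase genes (vertical) on the 2 wild-type arrays in blue and the 2 mutant arrays in red, with circles for replicate 1 and squares for replicate 2. Both red points lie to the right of both blue points for AT5G51890, PRX71 and AT3G28200, and to the left for AT3G21770.

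AT5G51890 encodes a peroxidase known from differentiating tracheary elements, the water-conducting cells of xylem. Its signals were 82.4 and 115 in wild type and 204 and 205 in the mutant. Both mutant arrays were above both wild-type arrays, and the mutant mean was 2.08 times the wild-type mean. The log2 difference was 0.98 (SE 0.17, 95% confidence interval 0.59 to 1.38, limma adjusted p = 0.0218). The wild-type replicates lay 0.42 apart on the log2 scale, and the closest pair of arrays across the groups lay 0.77 apart. When any 1 array was left out the difference was between 0.77 and 1.19, and limma adjusted p was between 0.0222 and 0.0472. Among all tested probe sets, 153 had a difference at least as high.

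PRX71 (AT5G64120) encodes a peroxidase of lignin formation in the stem that is also induced by pathogens and is known to limit cell expansion. Its signals were 71.8 and 76.9 in wild type and 146 and 167 in the mutant. The groups did not overlap, and the mutant mean was 2.10 times the wild-type mean. The log2 difference was 0.96 (SE 0.14, 95% confidence interval 0.63 to 1.29, limma adjusted p = 0.0152). The closest pair of arrays across the groups lay 0.82 apart, while replicates lay 0.08 and 0.18 apart on the log2 scale. With 1 array left out, the difference was between 0.86 and 1.05 and limma adjusted p between 0.0187 and 0.0449. Differences at least as high were found for 173 tested probe sets.

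AT3G28200, a peroxidase gene without an assigned role here, had signals of 77.4 and 75.7 in wild type and 133 and 115 in the mutant. The mutant arrays were both higher, with a mean 1.62 times that of wild type. The log2 difference was 0.61 (SE 0.14, 95% confidence interval 0.28 to 0.94, limma adjusted p = 0.0458). This call was lost whichever of the 4 arrays was left out, with limma adjusted p between 0.0886 and 0.207 and a difference between 0.52 and 0.70. It was also lost without an intensity trend in limma (adjusted p = 0.0623).

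AT3G21770 was the 1 tested peroxidase gene that fell, and it is known from work on the opening of seed pods. Its signals were 126 and 116 in wild type and 68.2 and 52.1 in the mutant. Both mutant arrays were lower than both wild-type arrays, and the mutant mean was 0.498 of the wild-type mean. The log2 difference was -0.88 (SE 0.16, 95% confidence interval -1.26 to -0.51, limma adjusted p = 0.0262). The closest pair of arrays across the groups lay 0.67 apart on the log2 scale, while the mutant replicates lay 0.32 apart. The direction held whichever array was left out, with a difference between -1.05 and -0.72. Leaving out mutant replicate 2, wild-type replicate 1 or wild-type replicate 2 ended the call, with limma adjusted p of 0.0792, 0.0801 and 0.0543. Differences at least as low were found for 215 tested probe sets.

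None of the 4 calls held when every probe set was tested with no filter on low signals. The limma adjusted p was then 0.0566 for PRX71, 0.0740 for AT5G51890, 0.0844 for AT3G21770 and 0.106 for AT3G28200, with the same differences. Under that setting limma called 13 probe sets on the whole array, 5 higher and 8 lower.

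**Figure D3:**
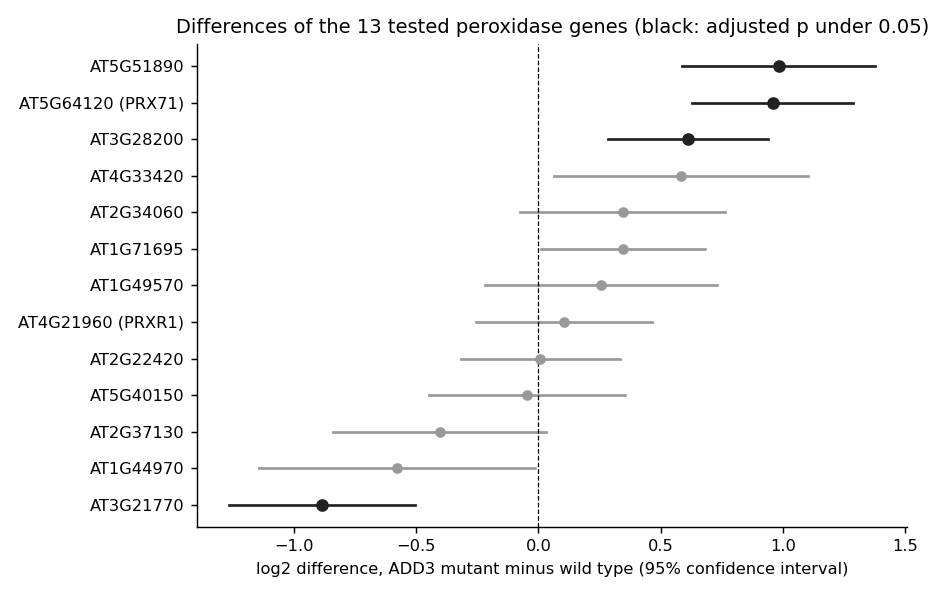
log2 difference, ADD3 mutant minus wild type, with its 95% confidence interval (horizontal) for the 13 tested peroxidase genes (vertical), ordered by the difference. Black marks the 4 genes with a limma adjusted p under 0.05, at 0.98, 0.96, 0.61 and -0.88, and grey the 9 others.

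The other tested genes of the lignin, xylem and stem group did not pass the test. AT4G33420, known from lignification of xylem vessels, had signals of 33.3 and 52.5 in wild type and 79.3 and 60.4 in the mutant. Its groups did not overlap, but the wild-type replicates lay 0.50 apart on the log2 scale, and the closest pair across the groups 0.17. Its log2 difference was 0.58 (95% confidence interval 0.07 to 1.10, limma adjusted p = 0.150), and it was 0.33 without wild-type replicate 1. The intervals are not adjusted for the number of tests, so one that excludes 0 is not a call. AT1G71695 had signals of 362 and 393 in wild type and 537 and 432 in the mutant, with a log2 difference of 0.34 (0.01 to 0.68, limma adjusted p = 0.180). Here too both mutant arrays were higher, by 0.14 for the closest pair, and the difference was 0.19 without mutant replicate 1.

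PRXR1 and AT2G22420 were the lignin, xylem and stem genes whose groups overlapped. PRXR1 (AT4G21960) had signals of 2077 and 2838 in wild type and 2606 and 2618 in the mutant, so the mutant arrays lay between the wild-type arrays. Its log2 difference was 0.10 with a 95% confidence interval of -0.26 to 0.47. AT2G22420, known from lignified tissue, had signals of 89.6 and 98.1 in wild type and 90.1 and 98.9 in the mutant. Its log2 difference was 0.01, and the 95% confidence interval of -0.32 to 0.33 does not reach the size of the rises of PRX71 and AT5G51890. The signs of both small differences turned when certain arrays were left out, with ranges of -0.12 to 0.33 for PRXR1 and -0.05 to 0.07 for AT2G22420. In this group 2 of 6 tested genes rose and 0 fell, beside 4.17% and 3.14% of all tested probe sets. The median log2 difference of the 6 was 0.46, beside -0.05 over all tested probe sets. The role groups were chosen with earlier results of these data known, so nothing is read from this share or this median.

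AT1G44970 was the 1 tested gene of the Casparian strip group, and it is also known from the tapetum of anthers. Its signals were 49.9 and 36.1 in wild type and 30.3 and 19.3 in the mutant. Both mutant arrays were lower, with a log2 difference of -0.58 that did not pass the test (SE 0.24, 95% confidence interval -1.14 to -0.01, limma adjusted p = 0.181). It was -0.36 without mutant replicate 2. Among the Casparian strip genes that were not tested, AT4G11290 had signals of 9.92 and 16.0 in wild type and 27.6 and 25.9 in the mutant. It was above background on both mutant arrays and on 1 of the 2 wild-type arrays. PRX72, known from stem lignin as well, was not above background on any array, with signals of 2.07 and 2.34 in wild type and 1.19 and 1.88 in the mutant.

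In the defence and oxidative burst group 6 of 11 loci had a probe set and 1 was tested. This was AT2G37130, with signals of 72.1 and 56.4 in wild type and 50.7 and 40.2 in the mutant. The mutant arrays were both lower, but the difference of -0.40 did not pass the test (SE 0.19, 95% confidence interval -0.84 to 0.03, limma adjusted p = 0.220). It was -0.26 without wild-type replicate 1. The neighbouring genes Prx37 and AT4G08780 were the 1 pair of adjacent loci in the list of which each had a probe set of its own. Prx37, known from vascular bundles, had signals of 17.3 and 17.0 in wild type and 11.9 and 3.09 in the mutant. AT4G08780 had signals of 53.1 and 31.3 in wild type and 26.9 and 21.0 in the mutant. Both were lower on each mutant array than on each wild-type array, both had mean signals under the filter, and Prx37 was above background on 1 wild-type array only. Whether the probe sets of such close copies read each other's transcripts was not tested.

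The remaining defence genes had mean signals below the filter. AT5G39580 had signals of 22.0 and 25.9 in wild type and 32.7 and 30.5 in the mutant, and was above background on all 4 arrays. AT4G36430 had signals of 22.9 and 37.4 in wild type and 28.4 and 39.0 in the mutant, with overlapping groups. AT1G14550 was not above background on any array, although its signals were higher in the mutant, at 9.73 and 11.5 against 3.07 and 1.94.

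Of the 5 reproductive and seed genes only AT3G21770, described above, was above background on all 4 arrays. PER36, which acts in the release of seed coat mucilage, had signals of 2.75 and 3.46 in wild type and 10.3 and 2.95 in the mutant, none above background. AT5G14130 was likewise not above background on any array. AT4G16270, known from the tapetum together with AT1G44970, was above background on wild-type replicate 1 only, at 26.6. The other signals of AT4G16270 were 10.8 in wild type and 14.8 and 11.0 in the mutant. AT1G77100 was above background on both wild-type arrays, at 22.7 and 20.7, and on neither mutant array, at 22.2 and 11.5. On mutant replicate 1 the background was 25.4, while the second-highest control read 9.96. With the second-highest control as background AT1G77100 was above it on all 4 arrays. Its groups overlapped.

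Of the 16 genes without an assigned role 4 were tested, and AT3G28200 was the 1 called. AT2G34060 had signals of 45.1 and 35.7 in wild type and 57.1 and 52.0 in the mutant, with a log2 difference of 0.35 (95% confidence interval -0.07 to 0.76, limma adjusted p = 0.268). AT1G49570 had signals of 29.9 and 34.8 in wild type and 46.9 and 35.6 in the mutant, with a log2 difference of 0.25 (-0.22 to 0.73, limma adjusted p = 0.465). In both genes the mutant arrays were higher than the wild-type arrays without passing the test. The difference of AT2G34060 was 0.22 without wild-type replicate 2. That of AT1G49570 was 0.10 when mutant replicate 1 was left out and 0.41 when mutant replicate 2 was. AT5G40150 had signals of 63.3 and 85.6 in wild type and 70.5 and 71.4 in the mutant. Its groups overlapped, and its log2 difference of -0.05 had a 95% confidence interval of -0.45 to 0.35. It was 0.04 with median scaling and 0.02 with quantile normalization, so its sign turned with the scaling. It was -0.23 without wild-type replicate 1 and 0.14 without wild-type replicate 2.

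Of the 12 untested genes without an assigned role, AT1G68850, AT2G35380 and AT4G30170 were above background on no array. AT1G68850 had signals of 10.7 and 6.30 in wild type and 1.48 and 1.47 in the mutant. AT5G15180 had signals of 2.40 and 13.6 in wild type and 21.3 and 21.2 in the mutant, above background on 1 array of each group. AT2G39040 had signals of 16.6 and 23.0 in wild type and 4.78 and 10.9 in the mutant, above background on wild-type replicate 2 only. These signals lie so close to the background that they give no usable size of a difference.

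The 13 tested genes together spread in both directions. Their median log2 difference was 0.25, beside -0.05 over all tested probe sets, and 9 of 13 differences were above 0, beside 44.1% of all tested probe sets. With median scaling 10 of 13 were above 0, beside 55.3%. With no filter 19 of 44 were above 0, beside 40.9%, and the median over the 44 genes was -0.022. The median and the count above 0 thus depend on which genes pass the filter. AT1G49570, whose own difference is the median of 0.25, had mean signals of 32.4 in wild type and 41.3 in the mutant. AT1G44970 had mean signals of 43.0 in wild type and 24.8 in the mutant. Each of these genes had 1 group mean below the filter signal of 33.2 and passed through its other group. The median of the 13 was 0.11 without mutant replicate 1 and 0.40 without mutant replicate 2. In 10 of the 13 genes the groups did not overlap, 7 with higher and 3 with lower mutant signals. Over all tested probe sets the groups did not overlap in 57.1%, with higher mutant signals in 24.8% and lower ones in 32.3%.

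**Figure D4:**
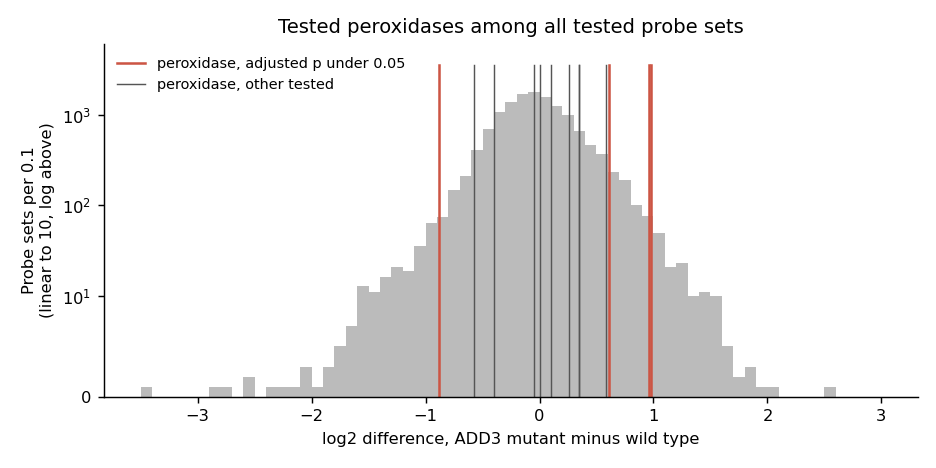
Number of probe sets per 0.1 of log2 difference, ADD3 mutant minus wild type, among all 13648 tested (grey bars, vertical axis linear to 10 and logarithmic above), with a vertical line for each of the 13 tested peroxidase genes. The 4 called genes, in red, lie at 0.61, 0.96, 0.98 and -0.88. The central 95% of the tested probe sets runs from -0.76 to 0.79, with the first of these inside it and the other 3 outside.

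The enzymes and wall proteins that peroxidases work with were represented by few probe sets that the annotation gave to 1 gene. The annotation named no gene for 8730 of the 22746 probe sets. A locus without a probe set of its own here is thus not shown to be absent from the array. Of 18 monolignol synthesis loci 2 had a probe set of their own and 1 was tested. This was HCT, a hydroxycinnamoyl transferase on the route to lignin monomers, with wild-type signals of 513 and 490 and mutant signals of 736 and 704. HCT rose, with a log2 difference of 0.51 (SE 0.11, limma adjusted p = 0.0431). The call was lost whichever array was left out (limma adjusted p between 0.0626 and 0.215), and with quantile normalization (0.0636), and it held in 6 of 14 other fits. CCR2, a reductase of the same route, was not above background on any array. No locus of the list of secondary wall and xylem genes or of the list of Casparian strip proteins had a probe set of its own.

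Extensins, the wall glycoproteins that peroxidases cross-link, had 4 tested genes among 12 loci with none called. AT4G08410 had signals of 169 and 109 in wild type and 87.0 and 78.4 in the mutant. Both mutant arrays were lower, and the log2 difference was -0.64 (SE 0.20, limma adjusted p = 0.102). It was -0.35 without wild-type replicate 1, and without wild-type replicate 2 the difference was called at -0.93 (limma adjusted p = 0.0350). The leucine-rich repeat extensin gene AT3G24480 had a log2 difference of 0.36 (SE 0.16, limma adjusted p = 0.197), and of 0.19 without wild-type replicate 2. Of 26 other enzymes of peroxide and superoxide 2 were tested and none called, the ascorbate peroxidases of the chloroplast TAPX (log2 difference 0.31, limma adjusted p = 0.151) and SAPX (0.08, limma adjusted p = 0.763). Respiratory burst oxidases, which supply superoxide to the wall, had 3 probe sets among 10 loci, of which none was tested. LAC16 stood alone for the laccases, the other oxidases of lignin formation, and was not above background. AT5G47390, a regulator known to repress peroxidase genes in leaves, had signals of 217 and 198 in wild type and mutant signals of 184 and 197 (log2 difference -0.11, limma adjusted p = 0.624).

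Marker genes were checked for the tissue that the labels give. Of 11 green shoot markers 3 had a probe set of their own, all above background on all 4 arrays. Their summed signals were 5334 and 4975 in wild type and 6157 and 6641 in the mutant. Sums over different probe sets are set by the brightest ones, so nothing is read from the sums of these or of the root markers. LHCB4.3 and PSBY, genes of the photosystems, rose by 0.88 and 0.70 on the log2 scale (limma adjusted p = 0.0184 and 0.0157), and RCA, the Rubisco activase gene, had a log2 difference of 0.01. Leaving out mutant replicate 1 or 2 ended the call of PSBY (limma adjusted p = 0.0648 and 0.0659), and the use of no filter ended both calls (0.0615 and 0.0775). Of 10 root markers 3 had a probe set, with summed signals of 2066 and 2079 in wild type and 2553 and 2608 in the mutant. Among them PYK10, a glucosidase gene also expressed in seedling hypocotyls, was above background on all 4 arrays (log2 difference 0.32, limma adjusted p = 0.0989). Its signals were 2034 and 2032 in wild type and 2511 and 2571 in the mutant, so it made up nearly all of these sums. The root hair expansin gene EXPA7 had signals of 26.8 and 17.9 in wild type and 12.1 and 5.87 in the mutant, and was above background on the wild-type arrays only. EXPA18 was above background on 3 arrays, with signals of 5.16 and 29.0 in wild type and 30.4 and 31.5 in the mutant. Neither leaf hair marker had a probe set of its own. The part of tissue makeup in the peroxidase differences was not tested.

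**Figure D5:**
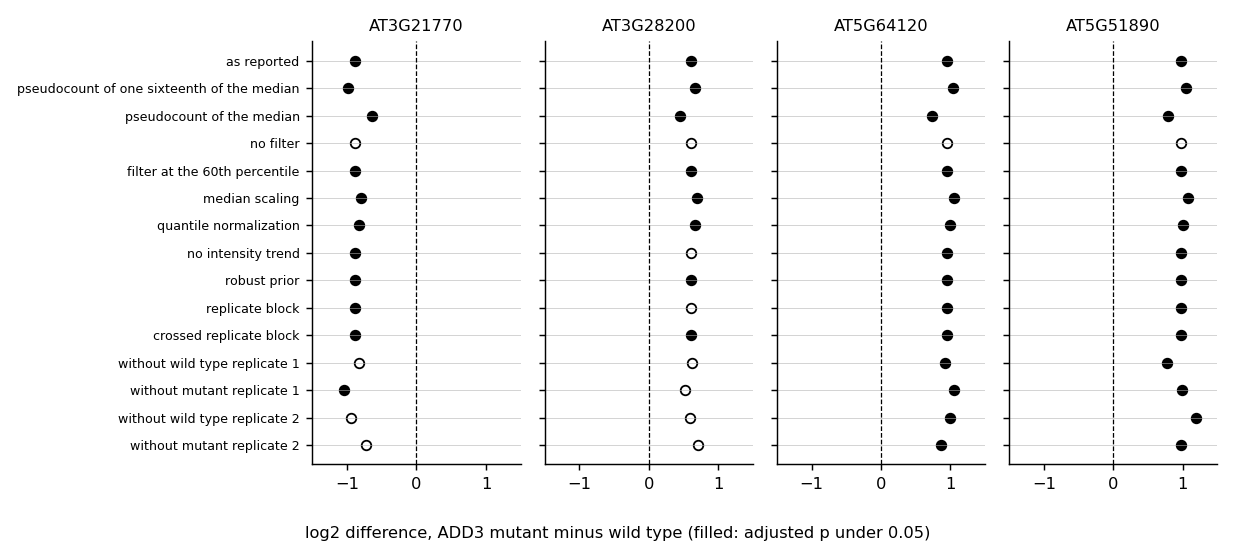
log2 difference, ADD3 mutant minus wild type (horizontal), of the 4 called peroxidase genes as reported and under 14 other settings (vertical). Filled points have a limma adjusted p under 0.05. The direction is the same in every setting shown. With no filter all 4 points are open, and AT5G51890 and PRX71 (AT5G64120) are filled in the 13 others.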

How the data were processed

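RNA from 2 ADD3 mutant and 2 wild-type samples had been hybridised to Affymetrix ATH1 arrays, 1 array a sample. Per the submitters' processing notes the deposited intensity values come from MAS5, whose version and settings are not given in the sources used. They are linear signals, 1 for each probe set and array. After trimming 2% at both ends each deposited column had a mean of 100.0, so the authors' values had been scaled array by array. The sample titles gave the groups and replicate numbers.

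Without 64 controls the table held 22746 probe sets. The platform annotation named 1 gene for 13513 of these, and 13436 could be placed in the TAIR10.1 gene table, which gave loci and names and held all 60 peroxidase loci. It named several genes for 503 probe sets and no gene for 8730. The brightest single-gene probe set stood for a locus. A pseudocount of 12.5, which is 0.25 of the median signal, was added before taking log2, so that changes of dim genes are understated. The test took probe sets whose mean signal over the 4 arrays reached 33.2, the 40th percentile. It was limma 3.58.1 under R 4.3.3, with an intensity trend in eBayes and 2 residual degrees of freedom. P-values are two-sided and were adjusted by Benjamini-Hochberg over all 13648 tested probe sets, with calls below 0.05. Tables were made with Python 3.11.15. The fit was tested on simulated arrays with known changes. These were drawn from the variance model of limma itself, so they check the code and not whether the real arrays meet that model.

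The peroxidase loci, their role groups and the other lists were chosen with earlier results of these data known, from general knowledge and not from a database. Any of the loci with a probe set of its own could be named. Genes called in the other lists are named, and otherwise up to 2 with the smallest p. Alternatives were other pseudocounts, filters, scalings, variance models and thresholds, a replicate block, the restriction to probe sets with a plain name and the omission of each array.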

Additional observations from a re-analysis of the deposited data

How the results depend on the processing

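All 4 called peroxidase genes kept their direction under each of the 14 other fits tried, and PRX71 and AT5G51890 kept their calls in 13 of them. With no filter, limma called 5 rises and 8 falls over the array, and 0 rises and 0 falls among the 44 peroxidases. An unadjusted limma p under 0.05 was found for 10 of the 44, beside 4142 of all 22746 probe sets, and nothing is read from these 10. The peroxidase median was then -0.022 over all 44, since dim genes enter it. Median scaling gave 937 rises over the array, so that 74.5% of calls were rises in place of 57.1%, with 3 rises and 1 fall among the peroxidases as before. Without an intensity trend there were 308 rises and 247 falls over the array. At a threshold of 0.01 limma called 26 rises and 24 falls, with 0 rises and 0 falls among the peroxidases, and at 0.1 it called 1038 and 929. Leaving out 1 array gave 232 to 506 rises and 205 to 311 falls over the array, 2 rises and 0 to 1 falls among the peroxidases, and a peroxidase median of 0.11 to 0.40. A lone sample is then assumed to vary like the other group.

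Same-numbered samples correlated at -0.12 in their deviations from the group means over the tested probe sets. The background level did go with the replicate number. It was 20.5 and 25.4 on the replicate 1 arrays of wild type and mutant, and 13.0 and 12.3 on the replicate 2 arrays. Whether same-numbered samples were handled together was not tested. The replicate block gave 501 rises and 377 falls over the array, and 2 rises and 1 fall among the peroxidases, where AT3G28200 lost its call (limma adjusted p = 0.0613). A crossed replicate block, chosen after seeing the data, gave 1050 rises and 859 falls, with 3 and 1 among the peroxidases. The second-highest control as background was also chosen after seeing the data. Of the 44 genes 31 had mean signals below the filter and were not tested, and 13 of these were above background on no array.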

Other observations

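A further 4 probe sets were annotated to several genes with at least 1 listed peroxidase among them, and they entered no count. The 1 that passed the filter, shared by a pair of adjacent peroxidase loci, had signals of 148 and 153 in wild type and 133 and 113 in the mutant, and its log2 difference of -0.27 did not pass the test (SE 0.14, limma adjusted p = 0.261). Another pair of peroxidase loci shared a probe set with signals of 33.9 and 26.2 in wild type and 13.3 and 16.0 in the mutant, below the filter and above background on 3 arrays. The probe set shared by 1 listed peroxidase and a gene outside the list had signals of 6.88 and 3.76 in wild type, not above background, and 44.0 and 27.8 in the mutant. The geometric mean of its mutant signals was 2.14 times that of the background levels on the wild-type arrays, which were 20.5 and 13.0. This is a ratio of averages, and the closest values across the groups were 27.8 and 20.5. The probe set was not tested because its mean signal was below the filter. Which of its 2 genes gave the signal cannot be told apart on this array.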
